A study of Ovis aries with 6 samples.

Results

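The lysosomal hydrolases and membrane proteins described here are 76 loci of sheep granulosa cells, of 34119 loci in the deposited table. A locus was a member where the table's pathway column named Lysosome, its transcript type was protein-coding, no gene on it carried a name starting with ATP6, and its mean over 6 libraries was at least 1 FPKM (fragments scaled by locus length and library size). The pathway name stood at 90 loci, all of them protein-coding. Of these, 8 carried ATP6 names, which are subunits of the vacuolar proton pump, and 6 of the other 82 had a mean below 1 FPKM. Those 6 were ABCB9 (0.845 FPKM), LAMP3 (0.436), AP3B2 (0.396), AP1M2 (0.298), HYAL4 (0.0549) and PSAPL1 (0.00972), while CTSW (1.01 FPKM), PLA2G15 (1.06) and CLTB (1.44) lay just inside the limit. The rule itself uses no difference between the groups, but its mean can be reached through 1 group. CTSW (0.473 to 0.637 FPKM) and PLA2G15 (0.673 to 0.857 FPKM) were below 1 FPKM in every atretic library and passed only through healthy libraries. For such members the limit favours a lower atretic level.

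Granulosa cells line the ovarian follicle and nourish the oocyte. RNA was sequenced in 3 libraries from follicles in atresia (AGC in the titles), the degeneration that ends most follicles, and 3 from healthy follicles (HGC). All samples are labelled Ovis aries granulosa cells, with no genotype, agent, age or time, and total RNA was depleted of ribosomal RNA. The labels call the replicates of a group biologically independent but name no animals, so p-values measure the spread between these libraries, and any pooling of follicles was not stated in the labels. In bulk RNA, fewer cells of a type and less RNA per cell cannot be told apart.

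Lysosomes are acidic compartments in which cells take apart proteins, glycans, lipids and nucleic acids delivered by endocytosis, autophagy and phagocytosis. Their soluble hydrolases are made in the endoplasmic reticulum, tagged with mannose 6-phosphate in the Golgi and carried onward by mannose 6-phosphate receptors in clathrin-coated vesicles, while their membrane proteins retain the enzymes, move substrates and export products. In the ovary, granulosa cells and macrophages both carry lysosomes, and dying granulosa cells of atretic follicles are cleared by phagocytosis. By role the members comprised 10 proteases, 19 glycosidases, 6 sulfatases or sulfatase activators, 3 lipid hydrolases, 4 nucleases or phosphatases, 13 membrane proteins or transporters, 20 genes of sorting and delivery and 1 member outside these classes (HYAL3, a hyaluronidase family member).

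Total counts ran from 87455037 to 91597388 per library. Healthy replicate 3 differed most from the rest. Its spread beyond counting error (biological coefficient of variation) was 0.404 to 0.45 against each other library, while atretic pairs had 0.153 to 0.18 and the other healthy pair 0.137. Granulosa markers were present in every library, with a summed level of 535 to 590 FPKM in atretic and of 565, 566 and 2220 FPKM in healthy replicates 1, 2 and 3. The sum holds 10 markers of 12 listed, without HSD17B1, whose locus is a member. INHBA made up most of it, with 336 to 392 FPKM in atretic and 324, 327 and 1660 in healthy. In FPKM, the shared loci of AMH (4.42) and AMHR2 (6.74) were not raised in healthy replicate 3, while the other markers were highest there. Theca markers summed to between 17.4 and 20.3 FPKM in atretic and to 19.5, 18.1 and 37.2 FPKM in healthy (5 found of 5). Much of this sum was INSL3, on a locus shared with JAK3 (10.3 to 12.6 FPKM in atretic, and 12.2, 12.2 and 19.7 in healthy). PTCH1 was instead lowest in healthy replicate 3 (1.59 FPKM). Of the theca markers, the androgen-producing enzyme CYP17A1, which defines theca cells, was at 0 in healthy replicate 1 and at most 0.19 FPKM elsewhere. LHCGR, the receptor of luteinizing hormone, which granulosa cells of late follicles also express, reached 13.3 FPKM in healthy replicate 3 against 0.597 to 2.24 elsewhere. Macrophage markers were also present (12 found of 16, none at 0 in any library), and summed to between 28.02 and 36.5 FPKM in atretic, 131 and 125 FPKM in healthy replicates 1 and 2 and 34.5 FPKM in healthy replicate 3. Stroma markers summed to 15.6 to 18.1, 40.3 in each of healthy replicates 1 and 2, and 12.2 FPKM in the same order (7 found of 7, none at 0). Endothelial markers summed to 1.79 to 2.06 FPKM in atretic and to 3.74, 4.22 and 1.56 FPKM in healthy (6 found of 6). PECAM1, KDR and TEK were highest in healthy replicates 1 and 2. CDH5 was at 0 in 5 libraries and CLDN5 at 0 in the healthy ones. The part of these other cell types in the values below was not tested.

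Most lysosomal members had less RNA in atretic than in healthy libraries, by a median log2 fold change (atretic minus healthy) of -0.29, with 65 of 76 members below 0. Over all 14702 loci tested the median was -0.03, and 54% were below 0. Among the 9542 protein-coding ones the median was -0.07, and 5765 were below 0. No member passed the test with all 6 libraries. With edgeR (quasi-likelihood F test, Benjamini-Hochberg adjustment over all tested loci), 0 members were higher and 0 lower at an adjusted p under 0.05. Of all tested loci, 0.0476% were called higher and 0.0204% lower, and among protein-coding loci 0.0314% each way. At an unadjusted p under 0.05, 0 members were higher and 20 lower, against 6.37% and 6.41% of all loci and 3.88% and 8.64% of protein-coding ones. The adjusted p of the members in this test lay between 0.127 and 0.996. DESeq2 called 6 members lower and 0 higher, against 1.75% and 2.53% of all loci and 2.32% and 1.69% of protein-coding ones. The 6 were CTSW, MAN2B1, GAA, the NAGLU locus, AP1B1 and CLTC.

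**Figure D1:**
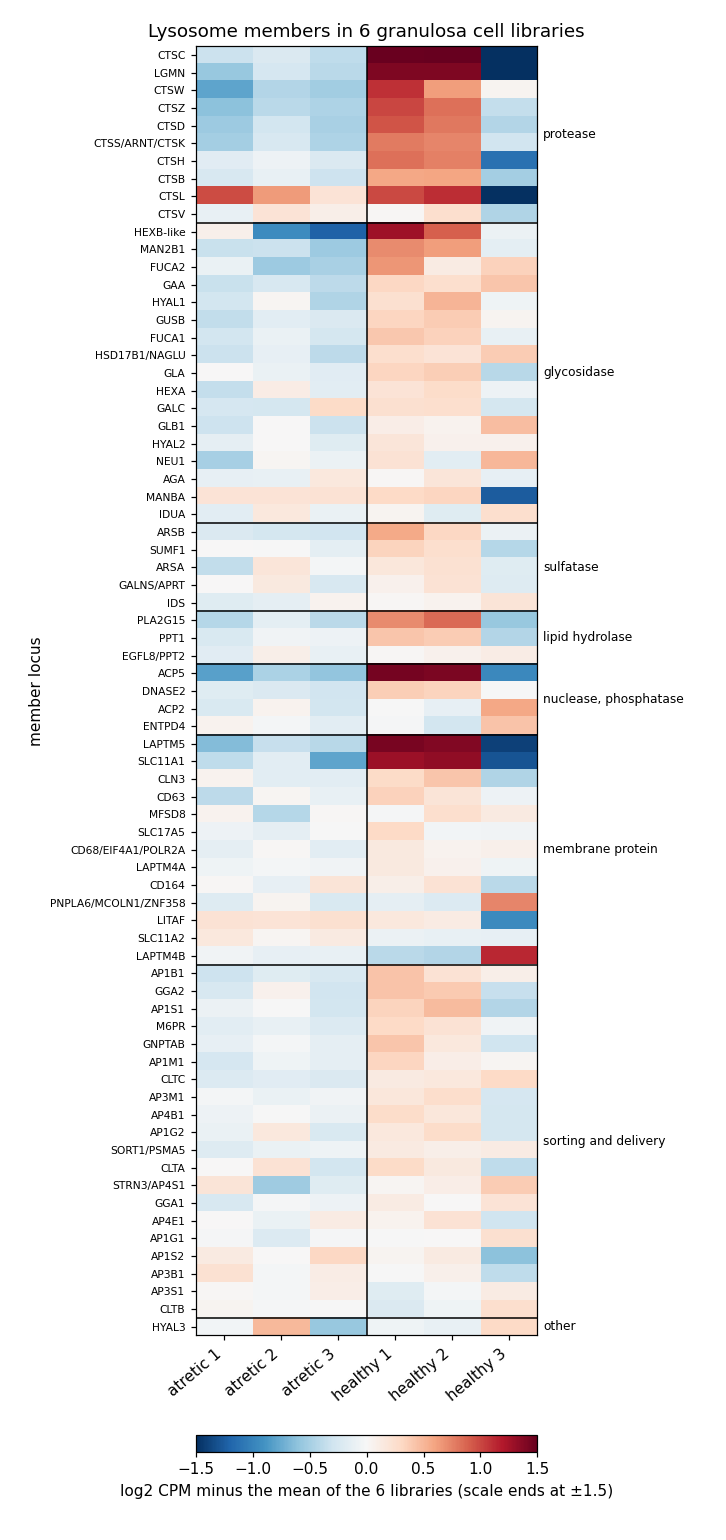
Level of members (rows, by role) in each library (columns), as log2 CPM (TMM-scaled counts) minus the mean of the 6 libraries, with red above and blue below that mean. Healthy replicates 1 and 2 are red over most rows, the atretic libraries are mostly pale blue, and healthy replicate 3 is deep blue in several proteases and red in some glycosidases.

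The calls rested on healthy replicate 3. Without it, 34 members fell in atretic and 1 rose by the same edgeR test with Benjamini-Hochberg adjustment, against 7.91% of all loci called lower and 10.9% called higher. Among protein-coding loci alone, 10.9% were called lower and 5.88% higher. The median log2 fold change of the members was then -0.34, that of all loci -0.01 and that of protein-coding loci -0.09. The 34 members had log2 fold changes from -2.05 (ACP5) to -0.28 (AP3M1) and adjusted p from 1.1e-06 to 0.0485. In healthy replicate 3 itself, 15 of these 34 lay below every atretic library, 5 within the atretic range and 14 above every atretic library. DESeq2 without that library called 1 higher and 40 lower, where it called 14.4% of all loci higher and 10.4% lower. EdgeR with DESeq2 size factors called 1 higher and 34 lower there, against 11.1% and 7.65% of all loci. For 14 of the 34 by edgeR with TMM, then, all 3 healthy libraries were higher than all 3 atretic ones in TMM-scaled CPM. For the other 20 the difference was carried by healthy replicates 1 and 2. The order of the 14 depended on the scaling. In deposited FPKM, healthy replicate 3 lay below every atretic library for ARSB and M6PR. It lay inside the atretic range for others, among them CTSZ, MAN2B1, GUSB, DNASE2 and AP1M1.

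**Figure D2:**
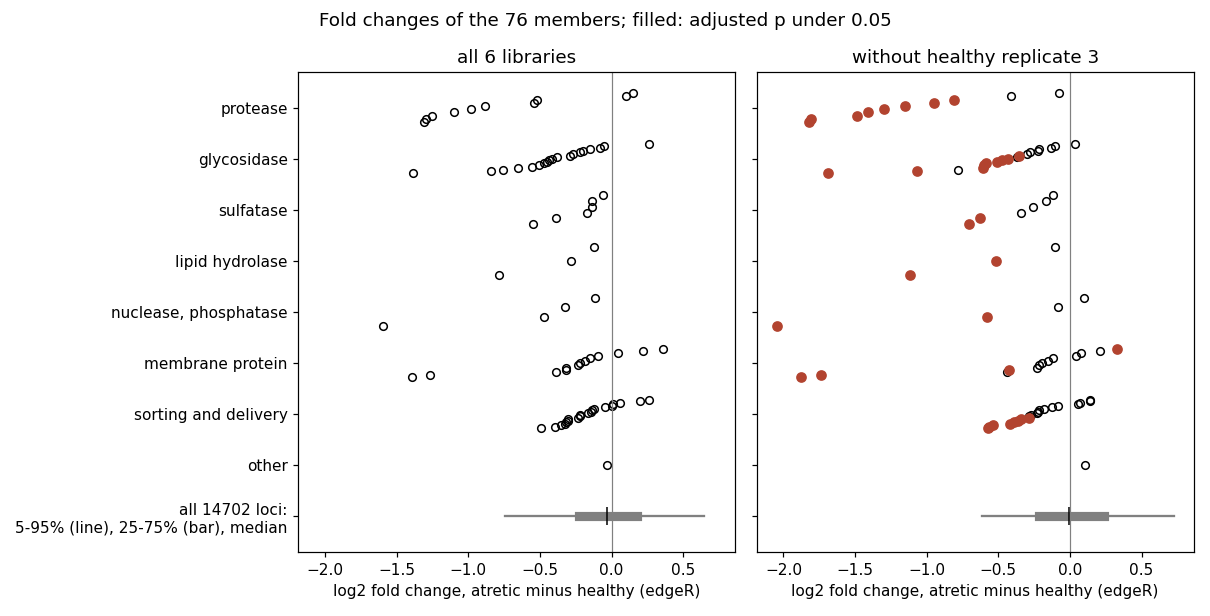
EdgeR log2 fold changes (atretic minus healthy) of the 76 members by role, with all 6 libraries on the left and without healthy replicate 3 on the right; filled points have an adjusted p under 0.05. No point is filled on the left and 35 are filled on the right, 34 of them below 0, and the grey bar gives the spread of all 14702 loci.

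Proteases showed the lowest median of the classes. Their 10 loci had median log2 fold changes of -0.93 with 6 libraries and -1.23 without healthy replicate 3, when 8 fell and 0 rose (0 either way with 6 libraries, 4 lower at an unadjusted p under 0.05). Of all loci, 7.91% were called lower without healthy replicate 3 (10.9% of protein-coding ones). At an unadjusted p under 0.05 with 6 libraries, 6.41% were lower (8.64% of protein-coding ones). Cathepsins are proteases named by letter, of several catalytic types, and most act inside the lysosome. CTSW, a cathepsin known from cytotoxic lymphocytes (chromosome 21, 45782346 to 45785593, as in the table, build not given in the sources used here), had the smallest p of the class. Its levels in atretic replicates 1 to 3 were 0.743, 0.957 and 0.904 CPM (read counts scaled by TMM to a common library size), and those in healthy replicates 1 to 3 were 2.83, 2.03 and 1.35 CPM. The groups did not overlap, and the log2 fold change was -1.25 (SE 0.34, edgeR adjusted p = 0.243). CTSW passed the limit of 1 FPKM only through healthy libraries, which favours such a difference. CTSZ, a carboxypeptidase of lysosomes (chromosome 13, 59729452 to 59738924), had 21.4, 24.7 and 23.8 CPM in atretic and 65.6, 58.2 and 25.6 CPM in healthy. Its groups did not overlap either, but healthy replicate 3 was just above the highest atretic library. The log2 fold change was -1.10 with 6 libraries (SE 0.33, edgeR adjusted p = 0.281) and -1.41 without healthy replicate 3 (SE 0.10, edgeR adjusted p = 9.8e-06).

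Cathepsin D (CTSD, chromosome 21, 51574865 to 51584627), the main aspartic protease of lysosomes, had 83.8, 101 and 87.2 CPM in atretic and 234, 210 and 89.9 CPM in healthy. Healthy replicates 1 and 2 were far above every atretic library, and healthy replicate 3 lay among the atretic ones. The log2 fold change was -0.98 (SE 0.34, edgeR adjusted p = 0.317), and -1.30 without healthy replicate 3 (SE 0.10, edgeR adjusted p = 1.2e-05). Legumain (LGMN, chromosome 18, 57719454 to 57757201) cuts after asparagine and activates cathepsins. It had 52.5, 65.4 and 58.6 CPM in atretic and 206, 206 and 26.0 CPM in healthy, so that healthy replicate 3 was the lowest library and healthy replicates 1 and 2 the highest. The same order held for cathepsin C (CTSC, chromosome 21, 8334104 to 8389286), which activates serine proteases of immune cells, with 56.1, 60.3 and 53.6 CPM in atretic and 195, 205 and 16.0 CPM in healthy. Between healthy replicates 1 and 2 and their group mate the level of CTSC thus differed 12.5-fold, more than the 3.53-fold between them and the atretic mean. Without healthy replicate 3 the log2 fold changes were -1.81 for LGMN (SE 0.10, edgeR adjusted p = 1.6e-06) and -1.82 for CTSC (SE 0.09, edgeR adjusted p = 1.1e-06). With 6 libraries they were -1.31 (SE 0.68) and -1.29 (SE 0.79), with edgeR adjusted p of 0.484 and 0.564.

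The cysteine proteases cathepsin S and cathepsin K share their locus with ARNT, a transcription factor (chromosome 1, 106466357 to 106587752), so counts of these 3 genes cannot be told apart. That locus had 59.0, 70.8 and 60.6 CPM in atretic and 143, 139 and 68.4 CPM in healthy, with healthy replicate 3 inside the atretic range. Cathepsin B (CTSB), an abundant cysteine protease, had 358, 392 and 340 CPM in atretic and 633, 635 and 297 CPM in healthy. CTSH, an aminopeptidase, had 19.2, 20.5 and 18.5 CPM against 38.3, 36.5 and 9.90. In both genes healthy replicate 3 was again the lowest of the 6 libraries, and both fell without it (log2 fold changes -0.81 and -0.95, edgeR adjusted p = 7.4e-05 and 0.00018). CTSL and CTSV are close paralogs, and whether reads were split between them was not tested. Neither passed in either fit, and CTSL had only 0.175 CPM in healthy replicate 3 (12 counts) against 3.47 to 6.51 CPM elsewhere.

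**Figure D3:**
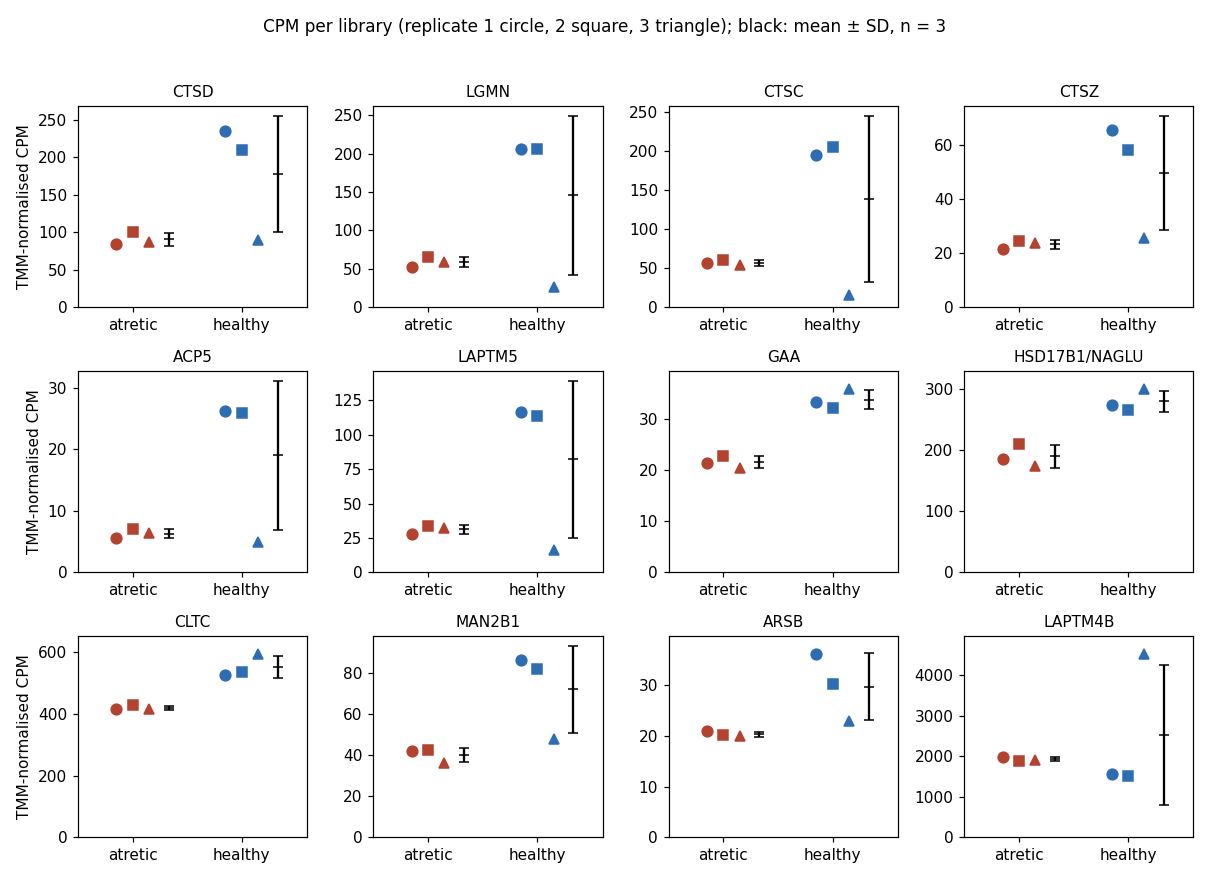
TMM-normalised CPM of 12 members in each library (circle, square and triangle for replicates 1, 2 and 3), with the mean and SD of each group (n = 3) in black. In CTSC, LGMN, LAPTM5 and ACP5 the healthy triangle lies below all atretic points, in GAA, the NAGLU locus and CLTC it lies with the other healthy points, and in LAPTM4B it lies far above all.

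Glycosidases had lower values in atretic, and in TMM-scaled CPM many of them against all 3 healthy libraries. Over 19 loci the median log2 fold change was -0.42, and -0.43 without healthy replicate 3. The groups did not overlap in 9 of them in TMM-scaled CPM, all with atretic lower. Of all loci, 10.8% had groups without overlap and atretic lower and 11.1% with atretic higher (14.2% and 8.25% of protein-coding loci). In deposited FPKM, of these 9 only GAA, FUCA2, GLB1 and the NAGLU locus kept groups without overlap. In the others healthy replicate 3 lay inside the atretic range there. No glycosidase passed with 6 libraries, and 9 were lower at an unadjusted p under 0.05, against 6.41% of all loci and 8.64% of protein-coding ones. Without healthy replicate 3, 9 fell and 0 rose, where 7.91% of all loci and 10.9% of protein-coding ones were called lower. GAA (chromosome 11, 10765270 to 10781474), the acid glucosidase that degrades glycogen in lysosomes, had the smallest p of all members. It had 21.3, 22.7 and 20.4 CPM in atretic and 33.2, 32.1 and 35.7 CPM in healthy. The group values were 21.5 ± 1.16 and 33.7 ± 1.86 CPM (SD, n = 3), and healthy replicate 3 was the highest library on this scale. In FPKM it was the lowest healthy one (5.81, 5.55 and 4.80), still above the atretic libraries. The log2 fold change was -0.65 (SE 0.11, edgeR adjusted p = 0.127), and -0.61 without healthy replicate 3 (SE 0.11, edgeR adjusted p = 0.0031).

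NAGLU, which removes N-acetylglucosamine from heparan sulfate, lies on a locus shared with HSD17B1, the granulosa cell enzyme that makes estradiol (chromosome 11, 20508035 to 20520057). The locus had 185, 211 and 174 CPM in atretic and 273, 266 and 299 CPM in healthy, without overlap, and its log2 fold change was -0.56 (SE 0.13, edgeR adjusted p = 0.189). Which of the 2 genes the counts came from was not tested. MAN2B1, the lysosomal alpha-mannosidase (chromosome 5, 11222962 to 11243256), had 42.0, 42.5 and 36.5 CPM in atretic and 86.8, 82.1 and 47.8 CPM in healthy. All healthy libraries were higher in CPM, but healthy replicate 3 was nearer to the atretic libraries than to its own group, and in FPKM it lay inside the atretic range. The log2 fold change was -0.84 (SE 0.23, edgeR adjusted p = 0.252), and -1.07 without healthy replicate 3 (SE 0.10, edgeR adjusted p = 4.1e-05).

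FUCA1, the lysosomal alpha-fucosidase (chromosome 2, 258594543 to 258613572), had a mean of 52.1 FPKM, the highest of this class, and stood at 97.4, 110 and 98.0 CPM in atretic and 155, 150 and 109 CPM in healthy. Healthy replicate 3 lay inside the atretic range, and the log2 fold change of -0.44 (edgeR adjusted p = 0.334) became -0.59 without it (edgeR adjusted p = 0.0011). IDUA, which removes iduronic acid from glycosaminoglycans (chromosome 6, 129376275 to 129390274), overlapped between the groups, with 35.0, 43.7 and 36.5 CPM in atretic and 40.5, 34.5 and 46.7 CPM in healthy, and passed in neither fit. GLB1, the acid beta-galactosidase, had 57.2, 71.2 and 56.3 CPM against 75.9, 73.3 and 97.6 CPM. GLB1, GUSB, FUCA2 and HYAL2 were also among the loci without overlap in CPM, and of these GUSB fell without healthy replicate 3. In FPKM the groups of GUSB and HYAL2 overlapped. A locus annotated as beta-hexosaminidase subunit beta-like had 3.38, 1.65 and 1.37 CPM in atretic and 7.80, 5.97 and 3.01 CPM in healthy and fell without healthy replicate 3 (log2 fold change -1.69, edgeR adjusted p = 0.0072). GLA, the alpha-galactosidase, also fell there by 0.43 on the log2 scale (edgeR adjusted p = 0.0066). MANBA, the beta-mannosidase, had 24.7 CPM in each atretic library, 26.2 and 26.7 CPM in healthy replicates 1 and 2 and 8.98 CPM in healthy replicate 3, the reverse order to GAA within the healthy group.

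Of the 6 sulfatases and sulfatase activators, 0 passed with 6 libraries and 2 fell without healthy replicate 3, with class medians of -0.16 and -0.30 on the log2 scale. In the latter fit 7.91% of all loci and 10.9% of protein-coding ones were called lower. ARSB, which desulfates dermatan and chondroitin sulfate (chromosome 7, 10744726 to 10911844), had 20.9, 20.2 and 19.9 CPM in atretic and 36.0, 30.2 and 22.8 CPM in healthy. Its groups did not overlap in CPM, but in FPKM healthy replicate 3 (3.51) lay below every atretic library (3.66, 3.69 and 3.55). The log2 fold change was -0.55 (SE 0.18, edgeR adjusted p = 0.303) and -0.71 without healthy replicate 3 (edgeR adjusted p = 0.0019). IDS, the iduronate sulfatase (chromosome X, 93388238 to 93407185), had 162, 168 and 190 CPM against 186, 191 and 210 CPM, with overlap between the groups. SUMF1, which activates all sulfatases (chromosome 19, 23393366 to 23493045), had 21.2, 21.0 and 19.0 CPM against 26.5, 25.1 and 15.6 CPM and passed in neither fit.

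The 3 lipid hydrolases and 4 nucleases or phosphatases included the member with the lowest log2 fold change in both fits. That member was ACP5, the tartrate-resistant acid phosphatase of osteoclasts and macrophages (chromosome 5, 14222336 to 14226570). It had 5.49, 6.98 and 6.43 CPM in atretic and 26.2, 25.8 and 4.94 CPM in healthy, so healthy replicates 1 and 2 were 4.13-fold above the atretic mean and healthy replicate 3 was the lowest library. The log2 fold change was -1.59 (SE 0.58, edgeR adjusted p = 0.33), and -2.05 without healthy replicate 3 (SE 0.14, edgeR adjusted p = 6.5e-06). DNASE2, which degrades the DNA of engulfed cells (chromosome 5, 11062440 to 11064790), had 10.2, 9.87 and 9.38 CPM in atretic and 14.8, 14.5 and 11.4 CPM in healthy without overlap. Its log2 fold change was -0.47 (SE 0.16, edgeR adjusted p = 0.31) and -0.58 without healthy replicate 3 (edgeR adjusted p = 0.014). ACP2, the lysosomal acid phosphatase (chromosome 15, 83394646 to 83401504), had 13.9, 17.0 and 13.5 CPM against 16.4, 15.0 and 24.4 CPM, with healthy replicate 3 the highest library.

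PPT1, which removes fatty acids from proteins (chromosome 1, 15226090 to 15241995), had 80.4, 90.6 and 89.3 CPM in atretic and 126, 122 and 69.3 CPM in healthy. PLA2G15, the lysosomal phospholipase A2 (chromosome 14, 38398386 to 38413657), had 3.76, 4.58 and 3.82 CPM in atretic and 8.34, 9.17 and 3.42 CPM in healthy. In both, healthy replicate 3 was the lowest library, neither passed with 6 libraries, and both fell without it, by 0.52 and 1.11 on the log2 scale (edgeR adjusted p = 0.0024 and 0.0022). PLA2G15 passed the limit of 1 FPKM only through healthy libraries, which favours such a difference. PPT2 shares its locus with EGFL8 (chromosome 20, 29051090 to 29062825), where 21.6, 25.8 and 22.4 CPM in atretic stood against 24.5, 25.4 and 26.1 CPM in healthy.

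Membrane proteins and transporters differed in direction. Their 13 loci had a median log2 fold change of -0.22. Among them 0 were called with 6 libraries, and 3 fell and 1 rose without healthy replicate 3. In that fit 7.91% of all loci were called lower and 10.9% higher (10.9% and 5.88% of protein-coding ones). LAPTM5, a lysosomal membrane protein of blood cells (chromosome 2, 252228650 to 252255649), had 27.7, 34.0 and 32.4 CPM in atretic and 117, 114 and 16.4 CPM in healthy. SLC11A1, the metal transporter of macrophage phagosomes (chromosome 2, 235214124 to 235225314), had 2.65, 3.12 and 1.998 CPM in atretic and 8.51, 8.80 and 1.40 CPM in healthy. Both had their 2 highest values in healthy replicates 1 and 2 and their lowest in healthy replicate 3. Without the latter they fell by 1.88 and 1.74 on the log2 scale (edgeR adjusted p = 1.6e-06 and 0.00039). With 6 libraries the log2 fold changes were -1.39 (SE 0.65, edgeR adjusted p = 0.439) and -1.27 (SE 0.64, edgeR adjusted p = 0.472). CD63, a tetraspanin of late endosomes, also fell without healthy replicate 3 (log2 fold change -0.43, edgeR adjusted p = 0.0485).

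SLC11A2, the transporter that carries ferrous iron out of endosomes and lysosomes (chromosome 3, 144694003 to 144926049), was among the 2 members with all atretic libraries above all healthy ones in TMM-scaled CPM. It had 178, 163 and 175 CPM in atretic and 149, 148 and 146 CPM in healthy. On the log2 scale the difference was 0.22 (SE 0.10, edgeR adjusted p = 0.439). A second gene with an Ensembl name lies on the same locus. The other was LITAF, a protein of late endosome membranes, with 228, 226 and 232 CPM against 219, 214 and 102 CPM, where most of the difference came from healthy replicate 3. In FPKM the groups overlapped in both. SLC11A2 had 3.38, 3.21 and 3.37 FPKM in atretic and 3.22, 3.16 and 2.42 in healthy. LITAF had 4.55, 4.70 and 4.72 FPKM in atretic and 4.97, 4.82 and 1.77 in healthy. LAPTM4B (chromosome 9, 87193977 to 87267541), a transmembrane protein of late endosomes and lysosomes, had 1984, 1899 and 1909 CPM in atretic, 1558 and 1517 CPM in healthy replicates 1 and 2 and 4519 CPM in healthy replicate 3. Its log2 fold change was -0.39 with 6 libraries (SE 0.45, edgeR adjusted p = 0.776). Without healthy replicate 3 it was the 1 member that rose, by 0.33 (SE 0.06, edgeR adjusted p = 0.0061), so its direction turned with that library. CD164, a sialomucin (chromosome 8, 31118908 to 31135077), had 362, 327 and 409 CPM against 378, 416 and 271 CPM, and LAPTM4A (chromosome 3, 29226995 to 29246334) had 146, 149 and 147 CPM against 169, 159 and 146 CPM. Neither passed in either fit.

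The genes of sorting and delivery showed small differences, with lower atretic values for the clathrin heavy chain, subunits of its adaptor AP-1 and a mannose 6-phosphate receptor. Over 20 loci the median log2 fold change was -0.19. The groups did not overlap in 7 in TMM-scaled CPM, all with atretic lower, against 10.8% of all loci and 14.2% of protein-coding ones. None passed with 6 libraries, and 4 were lower at an unadjusted p under 0.05, against 6.41% of all loci and 8.64% of protein-coding ones. Without healthy replicate 3, 8 fell and 0 rose, where 7.91% of all loci and 10.9% of protein-coding ones were called lower. CLTC, the clathrin heavy chain (chromosome 11, 53280231 to 53349050), had a mean of 52.2 FPKM and stood at 417, 428 and 415 CPM in atretic and 528, 536 and 593 CPM in healthy. All healthy libraries were above all atretic ones, and healthy replicate 3 was the highest on this scale. In FPKM it was the lowest healthy one (62.6, 62.8 and 54.1), still above the atretic libraries. On the log2 scale the difference was -0.39 (SE 0.12, edgeR adjusted p = 0.281) and -0.34 without healthy replicate 3 (SE 0.07, edgeR adjusted p = 0.0074). AP1B1, the beta subunit of the AP-1 adaptor that links cargo to clathrin at the trans-Golgi network (chromosome 17, 77843091 to 77895308), had 47.7, 52.4 and 50.02 CPM in atretic and 79.6, 68.7 and 63.0 CPM in healthy. Its groups did not overlap, and the log2 fold change was -0.49 (SE 0.12, edgeR adjusted p = 0.217) and -0.57 without healthy replicate 3 (edgeR adjusted p = 0.0026).

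M6PR, the cation-dependent mannose 6-phosphate receptor (chromosome 3, 221841893 to 221856484), had 55.7, 57.3 and 54.0 CPM in atretic and 76.6, 72.1 and 59.9 CPM in healthy, without overlap. In FPKM, however, healthy replicate 3 (11.5) lay below every atretic library (12.3, 13.1 and 12.1). The log2 fold change of M6PR was -0.32 (SE 0.12, edgeR adjusted p = 0.352), and -0.42 without healthy replicate 3 (edgeR adjusted p = 0.0076). AP1M1 and AP1G1, further AP-1 subunits, the adaptor GGA1 and the locus of the sorting receptor SORT1, which it shares with the proteasome subunit PSMA5, were the other 4 without overlap. Of the AP-1 subunits, AP1B1, AP1M1 and AP1S1 fell without healthy replicate 3. So did GNPTAB, which makes the mannose 6-phosphate tag, the adaptor GGA2 and AP3M1, the mu subunit of AP-3. AP3M1 (chromosome 25, 31097685 to 31121639) had 146, 139 and 144 CPM in atretic and 169, 179 and 125 CPM in healthy. CLTA, a clathrin light chain (chromosome 2, 55056130 to 55073966), had 29.2, 33.6 and 24.0 CPM against 35.5, 32.0 and 22.2 CPM, and its log2 fold change of -0.05 changed sign with the loci tested.

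Across the 76 members the groups did not overlap in 23, with atretic lower in 21 and higher in 2, against 10.8% and 11.1% of all loci. On the deposited FPKM scale, without TMM scaling, atretic was lower in 9 and higher in 0, against 10.1% and 8.67% of all loci, so the lower members were close to the background there. Against healthy replicates 1 and 2 alone the counts were 50 and 5, where 25.1% and 24.8% of all loci did so, and 33% and 15.7% of protein-coding loci. Of the 50, healthy replicate 3 lay above the atretic range for 21, below it for 22 and within it for 7. Those above included 9 glycosidases, 7 sorting genes, CTSW, CTSZ, ARSB, DNASE2 and the CD68 locus. Those below included the proteases LGMN, CTSB, CTSC, CTSH and CTSL, together with ACP5, LAPTM5 and SLC11A1. Over all 14702 loci, healthy replicate 3 lay above the atretic range for 38.3%, below for 39.1% and within for 22.6%.

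**Figure D4:**
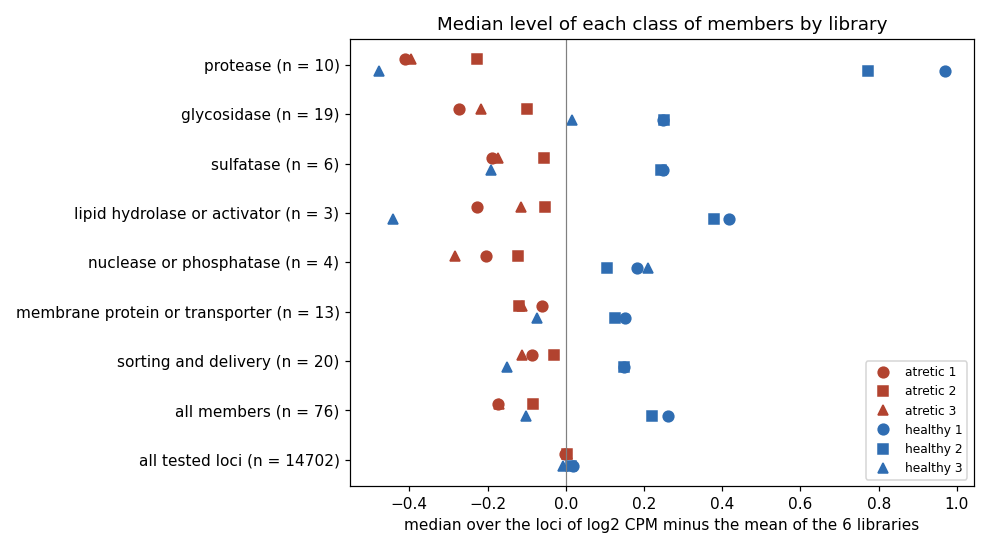
Median over each class of the level in each library (x axis, log2 CPM minus the mean of the 6 libraries), with atretic libraries in red and healthy ones in blue, and replicates 1, 2 and 3 as circle, square and triangle. For proteases, healthy replicates 1 and 2 lie at 0.97 and 0.77 and healthy replicate 3 at -0.48, left of every atretic library, while the glycosidase median of healthy replicate 3 (0.02) lies right of every atretic one.

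The class medians by library placed healthy replicate 3 differently from class to class. Over all members the atretic libraries had medians of -0.17, -0.08 and -0.17 and the healthy ones 0.26, 0.22 and -0.10, on the scale of log2 CPM minus the mean of the 6 libraries. Over glycosidases they were -0.27, -0.10 and -0.22 for atretic and 0.25, 0.25 and 0.02 for healthy. Medians of all tested loci ran from -0.01 to 0.02.

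As a sum, the 76 members took 0.634, 0.660 and 0.633% of all counts in atretic and 0.849, 0.832 and 0.761% in healthy, or 0.642 ± 0.0154% and 0.814 ± 0.0466% (SD, n = 3). All healthy libraries were higher, and the exact two-sided permutation p was 0.1, the smallest that 3 libraries against 3 can give. That separation rested on LAPTM4B. Without it, a choice made after seeing the data, the other 75 members took 0.463, 0.490 and 0.467% in atretic and 0.698, 0.686 and 0.422% in healthy, so healthy replicate 3 was below every atretic library (exact permutation p = 0.4). The membrane proteins, LAPTM4B among them, took 0.448% of counts in healthy replicate 3 against 0.299 to 0.314% in the other libraries. Summed FPKM, which weighs members per length, was 590, 663 and 608 in atretic and 1029, 989 and 584 in healthy, and the groups overlapped (exact permutation p = 0.4). The 10 proteases summed to 77.6, 93.4 and 80.7 FPKM in atretic and 250, 241 and 51.9 FPKM in healthy. All 43 hydrolases and activators together, HYAL3 included, summed to 314, 369 and 328 FPKM against 650, 622 and 299 FPKM. Healthy replicates 1 and 2 were above, and healthy replicate 3 below, every atretic library in both sums.

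Of the members, 6 are known to be abundant in macrophages, and like the macrophage markers they had their highest medians in healthy replicates 1 and 2. They are CTSC, ACP5, LAPTM5, SLC11A1 and the loci of CTSS and CD68. The CD68 locus (chromosome 11, 36110820 to 36201160) also covers EIF4A1 and POLR2A, a translation factor and an RNA polymerase subunit of all cells, so it is a poor measure of CD68. The median log2 fold change of the 6 was -1.28, and -1.78 without healthy replicate 3, when 5 fell. The other 70 members had a median of -0.25, and -0.29 without healthy replicate 3, when 29 fell and 1 rose. Without that library 7.91% of all loci were called lower and 10.9% higher (10.9% and 5.88% of protein-coding ones). As macrophages carry lysosomes, these 70 are not a set without macrophage RNA, and they include LGMN, with its libraries ordered as in CTSC. The part of macrophage RNA in the 70 was not tested. Of these 70, 20 had groups without overlap and atretic lower, against 10.8% of all loci and 14.2% of protein-coding ones.

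**Figure D5:**
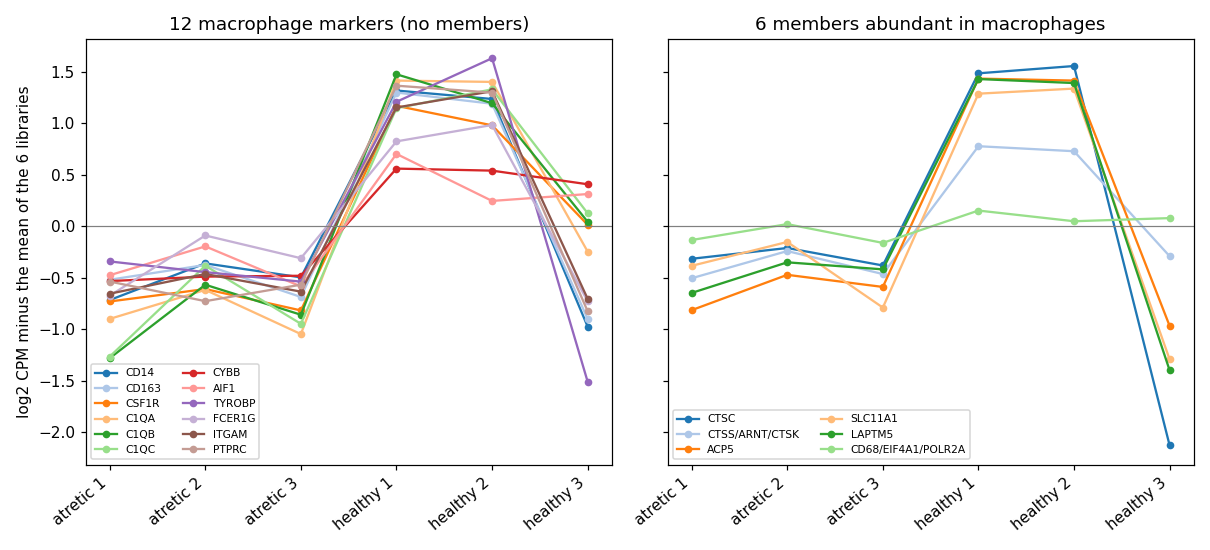
Level in each library (log2 CPM minus the mean of the 6 libraries) of the 12 macrophage markers on the left and of the 6 members abundant in macrophages on the right, 1 line a locus. By median both sets peak in healthy replicates 1 and 2, at 1.19 and 1.21 for the markers and 1.36 in each library for the members. In healthy replicate 3 the medians are -0.48 and -1.13, but 6 markers lie above and 6 below every atretic library there.

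The median of the 12 macrophage markers was -0.67, -0.46 and -0.61 in atretic and 1.19, 1.21 and -0.48 in healthy, on the same relative log2 scale. In healthy replicate 3 the markers split. There 6 lay above every atretic library (CSF1R, C1QA, C1QB, C1QC, CYBB and AIF1) and 6 below (CD14, CD163, TYROBP, FCER1G, ITGAM and PTPRC). The 6 macrophage-abundant members had -0.45, -0.23 and -0.44, then 1.36 and 1.36, then -1.13. The proteases were at 0.97, 0.77 and -0.48 in the healthy libraries and the glycosidases at 0.25, 0.25 and 0.02. Stroma markers were at 0.98, 0.84 and -0.86 in the healthy libraries, and granulosa markers at -0.19, -0.23 and 1.23. Whether macrophage or stroma RNA carried the differences of the proteases was not tested.

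Lysosomal genes on other lists, whose loci lack the pathway name in the table, also had mostly lower values in atretic. Of 22 such genes that were tested, 19 had a negative log2 fold change with a median of -0.17. Of all loci 54% were negative, and of protein-coding ones 5765 of 9542, with a median of -0.07. None was called with 6 libraries by edgeR with Benjamini-Hochberg adjustment. At an unadjusted p under 0.05, 5 were lower and 0 higher, against 6.41% of all loci and 8.64% of protein-coding ones lower. Without healthy replicate 3, 8 fell and 0 rose, where 7.91% of all loci and 10.9% of protein-coding ones were called lower. PSAP, whose protein is cut into the saposins that activate sphingolipid hydrolases, had 202, 230 and 198 CPM in atretic and 475, 466 and 229 CPM in healthy. LIPA, the acid lipase that frees cholesterol from its esters, had 54.4, 50.8 and 47.0 CPM against 115, 117 and 60.8 CPM without overlap. Both fell without healthy replicate 3 (log2 fold changes -1.17 and -1.20, edgeR adjusted p = 9.8e-06 and 1.2e-05). LAMP1 and LAMP2, the main glycoproteins of the lysosomal membrane, had log2 fold changes of -0.31 and -0.04, and PSAP, LIPA, LAMP1 and LAMP2 were named after their values were seen. Among the transcription factors known to drive lysosomal genes, TFEB had 1.71, 2.996 and 1.65 CPM in atretic and 4.29, 3.08 and 2.18 CPM in healthy, with overlap (log2 fold change -0.59, edgeR adjusted p = 0.568). For TFE3 the log2 fold change was -0.07 (edgeR adjusted p = 0.91), and MITF and TFEC were below a mean of 1 FPKM and were not tested.

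Of the 76 members, 67 lay on a locus of 1 gene. Of these, 32 fell without healthy replicate 3 and 1 rose, against 7.91% and 10.9% of all loci (10.9% and 5.88% of protein-coding ones). Their median log2 fold change with 6 libraries was -0.29. The other 9 were the loci of NAGLU, CD68, MCOLN1, SORT1, CTSS, GALNS, AP4S1, PPT2 and SLC11A2. The length that the deposited values imply (count divided by FPKM) was 1.33 to 64.5 kb for the members with a median of 4.84 kb, and it exceeded 10 kb in 20 of 76 (26.3%, against 31.3% of all tested loci). As a share of the span of the locus it was 87.7% for LAPTM4B, 97.2% for HYAL1, 104% for CD164, 105% for LITAF and 106% for GLA, and lower for all other members. What this length covers was not tested, so FPKM levels of these 5 may not compare with those of the others. The same holds for other members above 10 kb, among them AP3B1 (55.2 kb), the AP4S1 locus (53.1 kb) and the SLC11A2 locus (45.3 kb).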

How the data were processed

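Ribosomal RNA-depleted RNA of granulosa cells was sequenced in 6 libraries, 3 atretic and 3 healthy, grouped by the initials in the titles read with the design text. The submitters' processing notes name HISAT2 2.0.4 and StringTie 2.1.6, with SAMtools, FastQC 0.11.9 and cutadapt 1.9, in no order. Build, annotation and use of strand: not given in the sources used here. Per the file headers, the deposited table holds raw counts per locus and FPKM values made by the authors. Unnamed loci (8.877 to 11.48% of counts) were left out.

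From the counts, edgeR 4.0.16 was run in R 4.3.3 with TMM scaling, group alone, two-sided quasi-likelihood tests and Benjamini-Hochberg adjustment over 14702 named loci with a mean FPKM of at least 1. The TMM factor was 0.835 in healthy replicate 3 and 0.986 to 1.09 elsewhere. The standard error is the fold change divided by the root of the F statistic. CPM are over tested loci, and relative levels use a prior count of 2. Alternatives were DESeq2 1.42.0, its size factors in edgeR, no filter, a mean of at least 5 FPKM, limma 3.58.1 on log2(FPKM + 1), protein-coding loci, a replicate block and leaving out each library. A count of 0 would allow up to 3 counts, which is 0.0328 to 0.0343 CPM of total counts and covers counting error only.

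Of 7 members named by an Ensembl identifier, 6 took a symbol from RefSeq (assembly ARS-UI_Ramb_v3.0, names only). Values per library were given for the 3 members of each role with the smallest p and the 3 with the highest mean FPKM, and other members were named after their values were seen. Some members are counted in the totals but are not reported here singly, nor drawn in the plots of single members. Members, roles and lists were chosen with earlier results of these data known.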

Additional observations from a re-analysis of the deposited data

How the results depend on the processing

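The counts of called members depended on healthy replicate 3 and on the tool. Leaving out 1 library at a time gave 0 to 1 members higher and 0 to 34 lower by edgeR with Benjamini-Hochberg adjustment, and the upper values came without healthy replicate 3. DESeq2 called 6 lower with 6 libraries. Chosen after seeing the data, DESeq2 without healthy replicate 3 called 1 higher and 40 lower (14.4% and 10.4% of all loci), and its size factors in edgeR 1 and 34 (11.1% and 7.65%). The median log2 fold change stayed negative in every setting run, between -0.342 and -0.211 over the left-out libraries. Members without overlap numbered 2 to 5 higher and 22 to 50 lower over the left-out libraries, while the shares of all loci ran from 13.1 to 24.8% and from 12.6 to 25.1%. They numbered 0 and 13 of 36 at a mean of at least 5 FPKM (11.8% and 14.1% of all loci). On the deposited FPKM scale they numbered 0 and 9 of 76, against 8.67% and 10.1% of all loci, so the lower members were close to the background there. On loci of 1 gene, 1 was higher. The cause of these shifts was not tested.

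The correlations of same-numbered deviations from the group means were -0.137, 0.0584 and 0.000242. They cannot exclude pairing by replicate number, because healthy replicate 3 stands apart and shapes the deviations of the whole healthy group. With a replicate block, 0 members were higher and 0 lower, and the median was -0.248. Of 406 values of the 32 genes taken by rule, 368 kept direction and side of the threshold, 29 passed newly (23 without healthy replicate 3, 6 with DESeq2) and 10 turned sign, LAPTM4B being in both counts. CLTA turned to 0.03 at a mean of at least 5 FPKM and to 0.00 with protein-coding loci. Over the left-out libraries CLTA ranged from -0.22 to 0.10, CD164 from -0.12 to 0.18, IDUA from -0.18 to 0.03, LAPTM4B from -0.65 to 0.33 and SUMF1 from -0.34 to 0.01. With 3 libraries a group, of which 1 stands apart, small differences may have gone undetected.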
